A study of Mus musculus with 4 samples.

Results

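NF-kB transcription factors, the inhibitors that switch them off again and 2 genes at the head of the pathway were followed in mouse blood progenitors that lacked the nuclear pore protein Nup358. The set held 10 genes, chosen by symbol from the 27998 genes counted: the factors Nfkb1, Rel, Rela and Relb, the inhibitors Nfkbia, Nfkbid, Nfkbiz and Tnfaip3, the cytokine Tnf and the adaptor Tifa. Tifa was put in the set because its UMIs were lower in the knockout, so the difference between genotypes is described for all 10 genes without a test or a count of calls. Whether that difference varied between groups of cells was tested, and since the test draws on the same libraries it is no independent support for the choice. All 10 passed the filter on low counts over all LSK cells.

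The cells were LSK cells, the lineage-negative, Sca1-positive and cKit-positive fraction of bone marrow that holds stem cells and multipotent progenitors. Control mice were Nup358 fl/fl, labelled wild-type, and Nup358 knockout (KO) mice were Nup358 fl/fl that also carried the tamoxifen-regulated recombinase CreERT2 from the ubiquitous R26 locus, so every tissue of the KO mice could lose the gene. Tamoxifen was given on 3 consecutive days to mice aged 9 to 12 weeks and removed exon 2. Each genotype was measured in 2 libraries, each pooled from 3 marrows, so that n = 2 per genotype and no value belongs to a single mouse. The gene that encodes Nup358, Ranbp2 in the files, had 127 and 101 UMIs per 1000000 UMIs of the library (CPM) in control and 124 and 126 CPM in KO. Reads at the 3′ end lie outside exon 2 and do not check its deletion.

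In resting cells NF-kB dimers are held in the cytoplasm by inhibitors of the IkB family. Signals from cytokine receptors, Toll-like receptors or bacterial sugars activate the IkB kinase, the inhibitor is degraded, and the dimer enters the nucleus. Its targets include the inhibitor IkBα and the enzyme A20, which end the response, so the transcripts of these feedback genes are commonly used as a readout of the pathway. In stem and progenitor cells the pathway is known for its part in emergency blood formation and in myeloid and lymphoid cell fate.

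Several feedback genes are known to carry NF-kB sites close to their start, and promoters are shown for members with and without the consensus. Windows of 250 bases before a RefSeq start (GRCm38.p6) were found for 7 of the 10 genes, and none was found for Nfkbiz, Nfkb1 and Relb. The NF-kB consensus was searched on both strands and matched in 3.9% of all 32851 such windows. It matched the windows of Nfkbia and Rel, start 2 of 3 of Nfkbid and start 1 of 2 of Tnfaip3. The other windows of Nfkbid and Tnfaip3 had no match, and neither had the windows of Rela, Tnf and Tifa. The 3.9% is a share of windows and not of genes. Each sequence is read along the gene, 5′ to 3′, ends 1 base before the start and has the matches in capitals. The first 4 carry matches and Tifa carries none:
Nfkbia, chr12:55492648-55492897, minus strand: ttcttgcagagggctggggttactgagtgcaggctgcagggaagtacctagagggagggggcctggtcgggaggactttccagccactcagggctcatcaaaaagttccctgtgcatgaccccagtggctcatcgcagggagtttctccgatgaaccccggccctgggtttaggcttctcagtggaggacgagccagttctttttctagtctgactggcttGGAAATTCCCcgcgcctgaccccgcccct
Nfkbid, start 2 of 3, chr7:30422156-30422405, plus strand: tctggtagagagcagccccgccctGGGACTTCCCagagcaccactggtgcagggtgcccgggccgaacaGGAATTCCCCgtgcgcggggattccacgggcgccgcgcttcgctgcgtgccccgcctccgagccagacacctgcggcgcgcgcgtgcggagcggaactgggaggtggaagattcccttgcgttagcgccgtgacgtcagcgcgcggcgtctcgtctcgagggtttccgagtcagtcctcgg
Tnfaip3, start 1 of 2, chr10:19015411-19015660, minus strand: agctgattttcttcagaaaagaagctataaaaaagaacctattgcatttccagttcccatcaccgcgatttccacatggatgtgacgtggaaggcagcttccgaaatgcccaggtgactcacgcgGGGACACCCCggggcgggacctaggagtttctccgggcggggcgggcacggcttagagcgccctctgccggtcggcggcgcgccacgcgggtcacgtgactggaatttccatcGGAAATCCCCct
Rel, chr11:23770970-23771219, minus strand: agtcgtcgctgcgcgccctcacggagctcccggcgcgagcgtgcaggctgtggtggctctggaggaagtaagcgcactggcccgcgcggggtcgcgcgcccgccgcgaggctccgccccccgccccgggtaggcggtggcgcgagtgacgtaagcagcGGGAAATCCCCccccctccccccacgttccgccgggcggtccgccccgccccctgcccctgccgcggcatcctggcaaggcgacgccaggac
Tifa, start 1 of 2, chr3:127789622-127789871, plus strand: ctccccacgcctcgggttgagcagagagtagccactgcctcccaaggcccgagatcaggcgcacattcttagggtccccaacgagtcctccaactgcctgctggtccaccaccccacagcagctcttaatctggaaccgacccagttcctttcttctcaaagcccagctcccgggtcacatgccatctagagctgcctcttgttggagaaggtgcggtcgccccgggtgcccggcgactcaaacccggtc

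The match of Nfkbia, GGAAATTCCC, lay 29 to 20 bases before the start. Nfkbid had 2 separate matches and Tnfaip3 had 2, the nearer of which lay 12 to 3 bases before the start. The 3 matches of Rel overlapped and covered bases 92 to 82 before the start. A match of letters is a description and was not tested as a binding site.

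The 4 libraries held between 25111828 and 60330267 UMIs, and a UMI stands for 1 captured transcript. The libraries shared 6680 of their 14300 barcode sequences. In control replicate 2, 81.8% of the barcodes, and in KO replicate 1, 65.3%, repeated a barcode with 3-fold or more UMIs elsewhere in the series. Such barcodes were left out, which kept 14041 cells (7830, 1200, 1589 and 3422 in control 1, control 2, KO 1 and KO 2) with a median of 6251 to 17707 UMIs. Cells were gated by their marker genes as neutrophil, megakaryocyte, erythroid, early lymphoid or stem-like, and 6222 cells passed no gate. The gates are ranges of marker level and not sorted types. The LSK genes Kit, Ly6a, Cd34 and Flt3 summed to 556 to 695 CPM in the libraries. The few B lineage-gated cells had 30.1 CPM of Kit, 24.6 of Cd34 and 9.83 of Flt3. In cells of no gate these were 91.5, 283 and 45.8. Ly6a went the other way, at 1736 CPM in B lineage-gated cells against 222 in cells of no gate. The libraries also differed in their makeup. Neutrophil-gated cells made up 30.5% and 16% of the control cells against 11.8% and 5.84% of the KO cells, and B lineage-gated cells numbered 6 and 5 against 96 and 150. The 7 neutrophil markers summed to 7156 and 4582 CPM in control and to 1190 and 707 in KO libraries, and the 9 B lineage markers to 48.0 and 53.4 against 149 and 445. Markers of mature neutrophils summed to 2198 CPM in control replicate 2 against 120 to 357 in the other libraries, and those of erythrocytes to 1347 against 126 to 224, while plasma cell markers summed to 123 and 278 in control and 654 and 440 in KO libraries. Of these markers, 1 of erythrocytes was at 0, in KO replicate 2, and none of the others named here was. The part of these cells in the results was tested only by leaving out libraries and the B lineage and plasmacytoid gates. Over all LSK cells, a different mix of cells and a different level per cell cannot be told apart, and for this reason each member was also followed within gates.

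**Figure D1:**
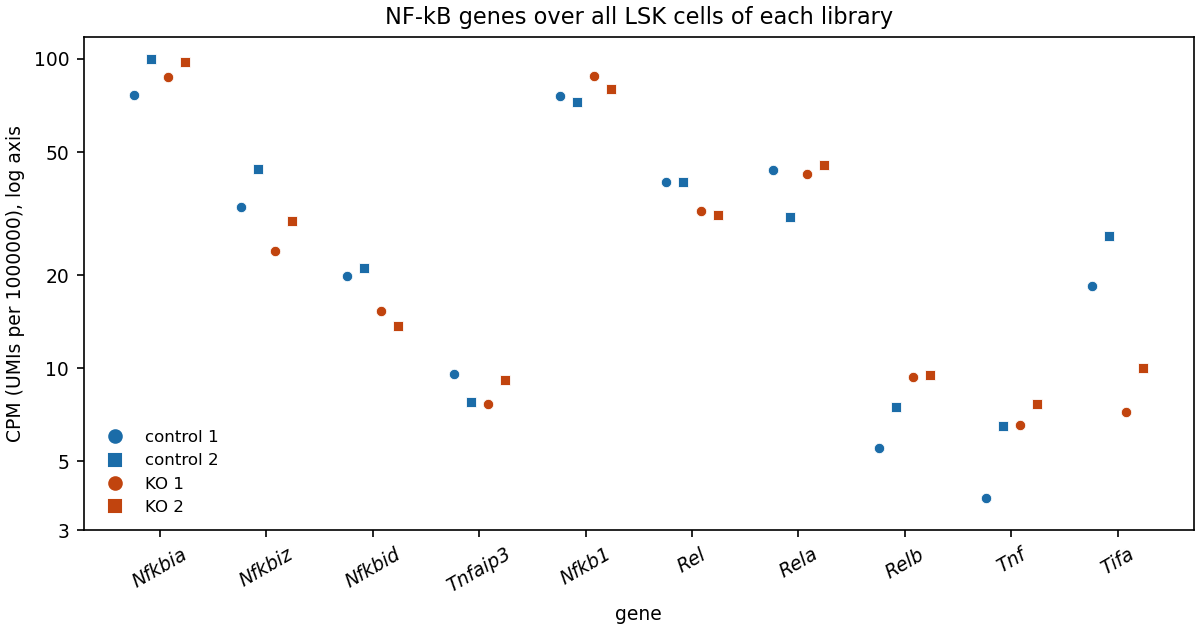
CPM (log axis) of the 10 genes over all LSK cells, 1 point per library, with control in blue, KO in orange, circles for replicate 1 and squares for replicate 2. Tifa has the widest gap between genotypes, 18.4 and 26.7 in control against 7.21 and 10.0 in KO libraries.

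Tifa encodes an adaptor that carries signals from the kinase Alpk1 to the ubiquitin ligase Traf6 and so to the IkB kinase. It lies on chromosome 3 (127789805 to 127832164, GRCm38, plus strand) and overlaps Ap1ar on the other strand. Over all LSK cells, its level was 18.4 and 26.7 CPM in control and 7.21 and 10.0 in KO libraries. Both KO libraries lay below both control libraries, as they did for 23.7% of all genes with 10 or more UMIs, while they lay above for 30.3%. The log2 difference was -1.42 (SE 0.25), and leaving out each library in turn gave -1.69 to -1.10. With all deposited barcodes it was -1.23.

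The lower Tifa level was seen in each of the 5 tested gates and in the cells of no gate. In neutrophil-gated cells it was 14.97 and 26.1 CPM in control and 5.72 and 4.08 in KO libraries, a log2 difference of -2.00 (SE 0.38). The gated cells were not alike between genotypes, as the median cell had 53.4 and 50.7 neutrophil marker UMIs per 10000 in control and 34.9 and 30.8 in KO libraries, nearer to the minimum of 20. With the minimums of all gates doubled, the neutrophil gate held 2043 and 162 control cells and 76 and 67 KO cells. Tifa was then 19.4 and 30.6 against 5.71 and 6.62 CPM, a log2 difference of -2.01 (SE 0.38). These cells are not a subset of the first gate, as Tifa UMIs of control replicate 1 rose from 357 to 461. Whether their marker levels were alike between genotypes was not tested. In stem-like cells Tifa was 15.3 and 26.6 against 8.61 and 7.83, a log2 difference of -1.34 (SE 0.32). In cells of no gate it was 14.9 and 22.8 against 5.27 and 5.06, a log2 difference of -1.82 (SE 0.25). The genotypes did not overlap in any of them, and the early lymphoid, megakaryocyte and erythroid gates gave -1.69, -1.40 and -2.48. Among all genes with 10 or more UMIs, KO libraries lay below control libraries without overlap for 29.5% in cells of no gate, 27.4% in the stem-like, 25.4% in the neutrophil, 21.5% in the early lymphoid, 20.5% in the megakaryocyte and 17.0% in the erythroid gate. Erythroid-gated KO cells held only 3 and 4 Tifa UMIs. In the monocyte and dendritic gate, which had too few cells for a test, Tifa was 28.4 and 41.0 CPM in control and 46.9 and 41.2 in KO libraries, the last 2 from 9 and 4 UMIs.

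Tifa was not called in any comparison between gates, although the neutrophil gate was called higher with doubled gate minimums (0.46, SE 0.13, edgeR adjusted p = 0.00639) and the megakaryocyte gate with all deposited barcodes (0.59, SE 0.20, adjusted p = 0.0438). Its mean over the 4 libraries ran from 10.7 (SD 8.35) CPM in erythroid-gated cells to 14.96 (SD 8.51) in megakaryocyte-gated cells, with no difference from the cells of no gate past the threshold (edgeR's quasi-likelihood fit, Benjamini-Hochberg adjusted p 0.0688 to 0.939). Its difference between genotypes was likewise not found to differ between any gate and the cells of no gate (adjusted p 0.554 to 0.962). With an SE of up to 0.57, the erythroid gate could hide a sizeable difference. Over the 24 sums of library and gate, the 5 genes of 8013 whose level was most alike to that of Tifa were Bloc1s1 (Pearson's r 0.93), Mcee (0.91), BC051226 (0.90), Rpl15 (0.89) and Rhob (0.88). These sums share 4 libraries, so the likeness holds the genotype difference as well as the gates.

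**Figure D2:**
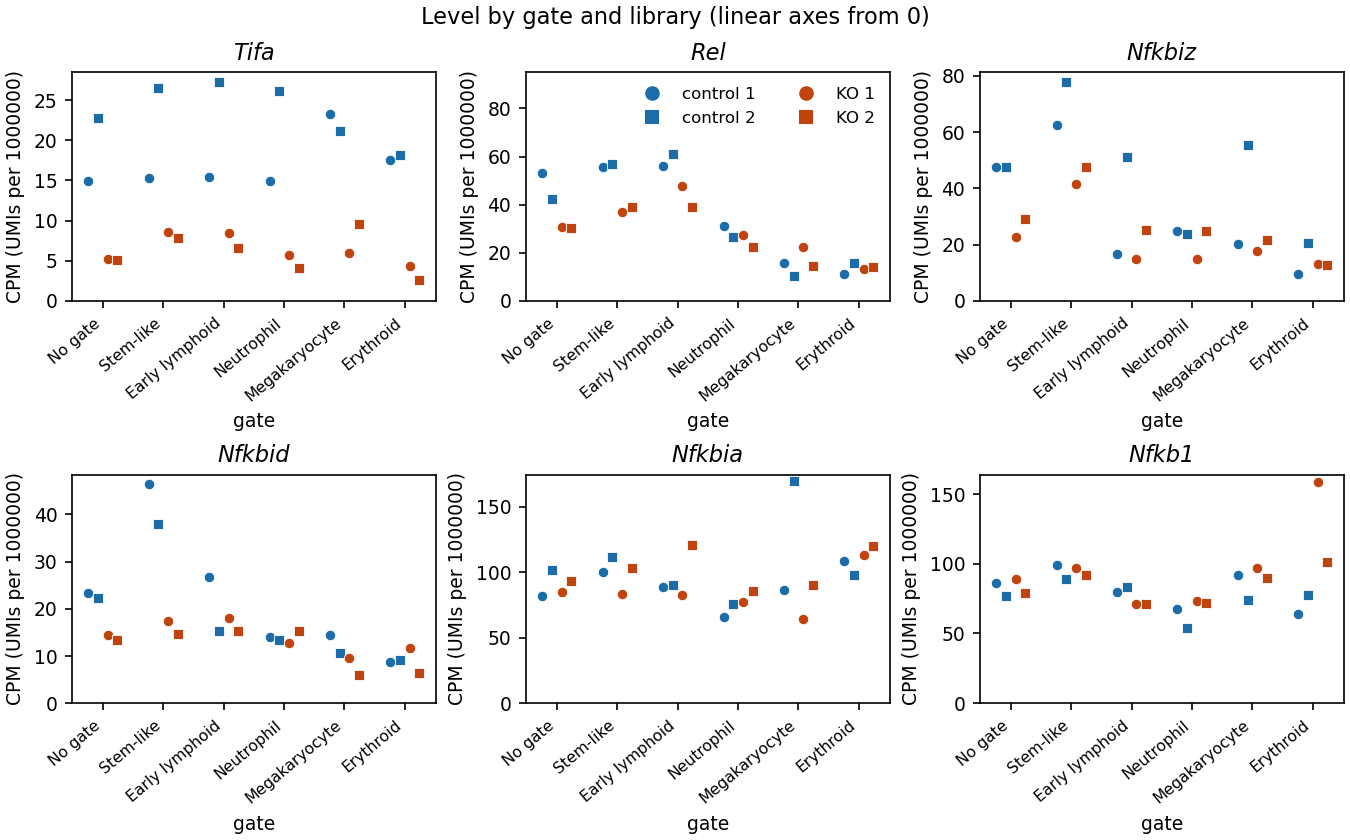
CPM of 6 of the genes in cells of no gate and in the 5 tested gates, on linear axes from 0, with 1 point per library. Control is blue, KO orange, circles mark replicate 1 and squares replicate 2. Tifa separates the genotypes in every gate shown, Rel is lowest in the megakaryocyte and erythroid gates, and Nfkbia overlaps between genotypes in 4 of the 6 groups of cells.

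The IkB family members did not move together. Nfkbia encodes IkBα, the inhibitor that NF-kB induces to end its own response, and lies on chromosome 12 (55489410 to 55492647, minus strand). It had 76.6 and 100.2 CPM in control and 87.6 and 98.0 in KO libraries, and the genotypes overlapped, with a log2 difference of 0.03 (SE 0.18). Leaving out single libraries gave -0.18 to 0.26, so its sign was not fixed. Of 8013 genes compared over the 24 sums, the 5 most alike to Nfkbia were Josd1 (Pearson's r 0.71), Tmem29, Cluap1, Pus3 and Yae1d1 (0.66). They are the highest of many values over sums that share 4 libraries, and the likeness was not tested.

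Nfkbiz and Nfkbid encode IkBζ and IkBNS, nuclear members of the family that act on NF-kB already bound to DNA. Nfkbiz had 33.1 and 44.0 CPM in control and 23.9 and 30.01 in KO libraries, a log2 difference of -0.56 (SE 0.20). Without control replicate 2 it was -0.31. Nfkbid had 19.9 and 21.1 against 15.3 and 13.7, a log2 difference of -0.54 (SE 0.15). The KO libraries were lower without overlap for both genes, as they were for 23.7% of all genes with 10 or more UMIs. When each cell was thinned to 2000 UMIs, the difference of Nfkbid was -0.06, and -0.25 when B lineage-gated and plasmacytoid-gated cells were left out as well.

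In stem-like cells Nfkbid had 46.5 and 38.1 CPM in control and 17.5 and 14.6 in KO libraries, a log2 difference of -1.42 (SE 0.20). In neutrophil-gated cells the values overlapped at 14.1 and 13.4 against 12.7 and 15.2. With the minimums of all gates doubled they were 14.8 and 13.98 against 11.9 and 9.27. The difference between genotypes was 0.72 (SE 0.19) higher on the log2 scale in the neutrophil gate than in cells of no gate (edgeR, adjusted p = 0.0346), a call lost when control replicate 1 (adjusted p = 0.156), KO replicate 1 (0.171) or KO replicate 2 (0.544) was left out, with all deposited barcodes (0.0959) or with doubled gate minimums, which gave 0.30. For stem-like cells against cells of no gate it was -0.73 (SE 0.19, adjusted p = 0.0821 by edgeR) and did not pass.

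Tnfaip3 encodes A20, the ubiquitin-editing enzyme that shuts off signalling above the IkB kinase. Over all LSK cells it had 9.55 and 7.80 CPM in control and 7.67 and 9.16 in KO libraries, with overlap and a log2 difference of -0.09 (SE 0.19). Without control replicate 1 it was 0.05, and without KO replicate 1 it was 0.04. Within gates it was lower in KO without overlap in cells of no gate and in the stem-like, early lymphoid and megakaryocyte gates. In stem-like cells it had 17.7 and 11.8 against 7.57 and 10.4, and the early lymphoid gate, with 4 to 20 UMIs per library, had 16.8 and 13.3 against 4.24 and 5.23. The megakaryocyte gate had 13.2 and 10.6 against 1.18 and 9.11, from 21, 4, 1 and 21 UMIs. KO libraries lay below without overlap for 29.5% of all genes with 10 or more UMIs in cells of no gate. In the stem-like, early lymphoid and megakaryocyte gates they did so for 27.4%, 21.5% and 20.5%.

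Among the factors, Rel was lower in KO over all LSK cells and Nfkb1, Rela and Relb were not. Rel encodes c-Rel, the subunit best known in lymphocytes, and had 40.04 and 40.06 CPM in control and 32.1 and 31.3 in KO libraries. The replicates lay close to each other, with a log2 difference of -0.38 (SE 0.13). The KO libraries were lower without overlap, as they were for 23.7% of all genes with 10 or more UMIs. Leaving out single libraries gave -0.40 to -0.36, while thinning each cell to 2000 UMIs gave -0.07, and -0.31 with B lineage-gated and plasmacytoid-gated cells also left out. Stem-like cells had 55.5 and 56.7 against 37.1 and 39.0, a log2 difference of -0.57 (SE 0.17). Rel was lower without overlap in 3 of 6 groups, the stem-like and early lymphoid gates and cells of no gate. All genes did so for 27.4%, 21.5% and 29.5%. The genotypes overlapped in the neutrophil gate, at 31.3 and 26.5 against 27.5 and 22.5. They also overlapped in the erythroid gate (11.2 and 15.9 against 13.2 and 14.2) and the megakaryocyte gate (15.7 and 10.6 against 22.5 and 14.3).

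Nfkb1 encodes p105, the precursor of the p50 subunit. It had 76.0 and 72.5 CPM in control and 88.3 and 80.0 in KO libraries, a log2 difference of 0.14 (SE 0.14). The KO libraries were higher without overlap, by about the size of the SE, as they were for 30.3% of all genes with 10 or more UMIs. In erythroid-gated cells, Nfkb1 had 63.9 and 77.4 against 158.8 and 101.5, and both KO libraries were higher, as they were for 21.1% of all genes in this gate. This difference between genotypes was 0.80 (SE 0.18) higher on the log2 scale than in cells of no gate (edgeR, adjusted p = 0.0136). The call was lost without control replicate 1 (adjusted p = 0.628) or KO replicate 1 (0.267).

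Rela, which encodes the activating subunit p65, had 43.9 and 30.9 CPM in control and 42.5 and 45.3 in KO libraries. The values overlapped, with a log2 difference of 0.19 (SE 0.18) that became -0.019 without control replicate 2. Relb, the subunit of the slower non-canonical pathway, had 5.52 and 7.48 against 9.35 and 9.53, a log2 difference of 0.51 (SE 0.21). Its KO libraries were higher without overlap, as they were for 30.3% of all genes with 10 or more UMIs. Without control replicate 1 the difference was 0.27. Within gates, Relb was higher in KO without overlap in 3 of 6 groups, the neutrophil and early lymphoid gates and cells of no gate. All genes with 10 or more UMIs did so for 22.3%, 20.6% and 26.0%. It was lower without overlap in the megakaryocyte gate, at 5.65 and 7.93 against 3.55 and 5.21, from 3 to 12 UMIs per library. KO libraries lay below without overlap for 20.5% of all genes in this gate.

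Tnf, the cytokine that both activates NF-kB and is induced by it, was scarce. It had 3.81 and 6.53 CPM in control and 6.57 and 7.67 in KO libraries, a log2 difference of 0.46 (SE 0.29). The nearest libraries of the genotypes were almost equal, and leaving out control replicate 1 gave 0.06, and control replicate 2 gave 0.89. In neutrophil-gated cells it had 2.77 and 5.67 against 9.23 and 12.2, from 25 to 66 UMIs per library, and both KO libraries were higher, as they were for 22.3% of all genes in this gate. The difference between genotypes in this gate was 1.03 (SE 0.28) higher on the log2 scale than in cells of no gate (edgeR, adjusted p = 0.0334), a call lost without control replicate 1 (adjusted p = 0.394), KO replicate 1 (0.263) or KO replicate 2 (0.437), with all deposited barcodes (0.0807) or with doubled gate minimums (0.357).

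**Figure D3:**
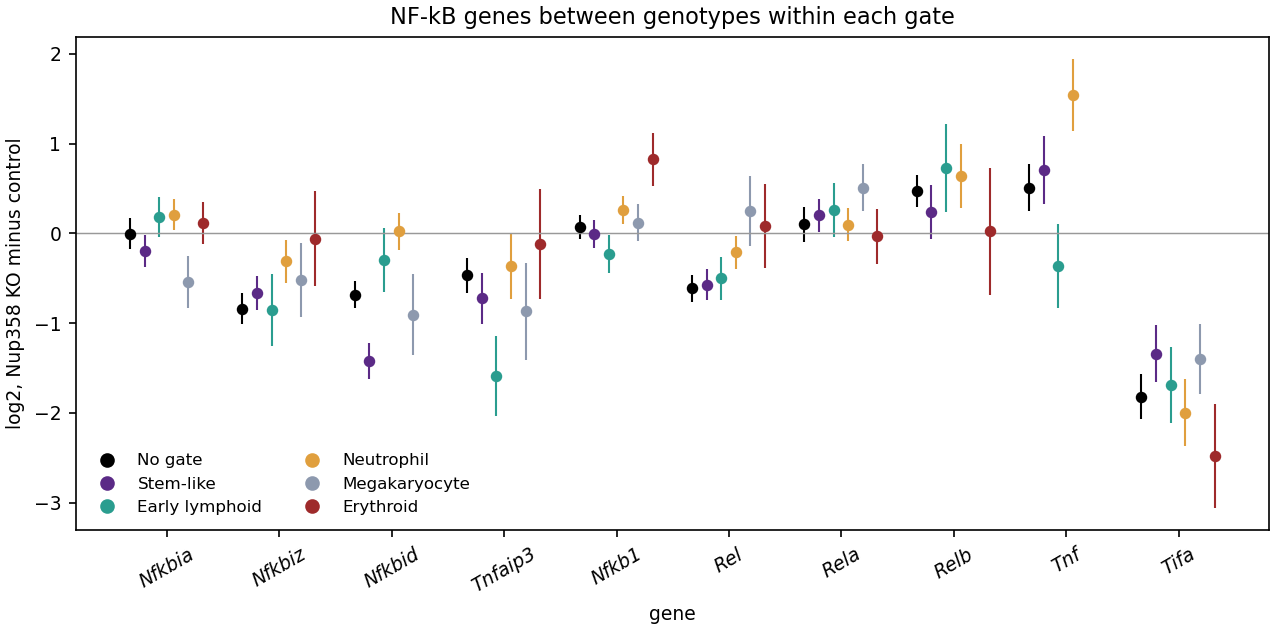
Log2 difference of each gene, KO minus control, in cells of no gate and in the 5 tested gates. Points are the fitted values and bars 1 SE, and a gene below the filter on low counts in a gate has no point. Tifa lies between -1.34 and -2.48 in every gate, while Nfkbia lies on both sides of 0.

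The median log2 difference of the members was -0.03 over all LSK cells. It was -0.38 in stem-like, -0.33 in early lymphoid and 0.06 in neutrophil-gated cells, and -0.24 in cells of no gate. In the megakaryocyte and erythroid gates, where 8 members were tested, it was -0.53 and -0.004. For all genes these medians ran from -0.014 to -0.001. The members include Tifa, which was chosen for its lower level in KO, so these medians are a description only.

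The comparison between gates did not enter the choice of genes and was tested, with the library as a block. Rel separated the lineages most clearly. Its level was 53.0, 42.3, 30.6 and 30.4 CPM in cells of no gate (control 1, control 2, KO 1 and KO 2), 11.2, 15.9, 13.2 and 14.2 in erythroid-gated cells and 15.7, 10.6, 22.5 and 14.3 in megakaryocyte-gated cells. Every erythroid and megakaryocyte value lay below every value of the cells of no gate. The log2 differences were -1.45 (SE 0.20, edgeR adjusted p = 2.27e-06) and -1.27 (SE 0.17, adjusted p = 3.65e-06), and the neutrophil gate was lower by a smaller amount, -0.41 (SE 0.10, adjusted p = 0.00168). Among the tested gates, the early lymphoid gate had the highest mean, at 56.1, 61.1, 47.7 and 39.2, a log2 difference of 0.42 (SE 0.13, adjusted p = 0.0302) that lost its call without control replicate 2, KO replicate 1 or KO replicate 2 (adjusted p up to 0.187). The stem-like gate, at 0.19 (SE 0.10, adjusted p = 0.152), could not be told from the cells of no gate.

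Among the tested gates and the cells of no gate, Nfkbiz and Nfkbid, like Rel, had their lowest mean in the erythroid gate. Nfkbiz had 47.5, 47.8, 22.7 and 29.2 CPM in cells of no gate and 9.58, 20.5, 13.2 and 12.9 in erythroid-gated cells, a log2 difference of -1.39 (SE 0.25, edgeR adjusted p = 0.000102). It was also lower in the neutrophil gate (-0.60, SE 0.13, adjusted p = 0.000484) and higher in the stem-like gate (0.57, SE 0.12, adjusted p = 0.000963), where it had 62.7, 77.9, 41.5 and 47.6 CPM. The stem-like call was lost when cells were thinned to 1000 UMIs before gating (adjusted p = 0.100). The megakaryocyte gate was at -0.60 (SE 0.20, adjusted p = 0.0359), a call held in 3 of 7 alternatives.

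Nfkbid had 9.03 (SD 2.17) CPM on average in erythroid-gated cells, 10.1 (SD 3.44) in megakaryocyte-gated cells and 29.2 (SD 15.6) in stem-like cells, against 18.4 (SD 5.18) in cells of no gate. The log2 differences were -1.01 (SE 0.34, edgeR adjusted p = 0.0216), -0.90 (SE 0.29, adjusted p = 0.0334) and 0.53 (SE 0.15, adjusted p = 0.0118). The erythroid call was lost without control replicate 1 or control replicate 2 (adjusted p up to 0.127), the megakaryocyte call without any 1 of the 4 libraries (up to 0.112), and the stem-like call without control replicate 1 or 2, by DESeq2 and with cells thinned to 1000 UMIs before gating (up to 0.214). Across the 24 sums, Nfkbid and Rel had a Pearson's r of 0.80, the highest among the 8 members with enough UMIs. This is a description over sums that share 4 libraries.

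Erythroid-gated cells differed from this pattern for the other inhibitors. Tnfaip3 had 27.9, 4.55, 32.3 and 10.3 CPM there and 12.7, 8.84, 7.21 and 8.15 in cells of no gate, a log2 difference of 1.07 (SE 0.28, edgeR adjusted p = 0.00426). Control replicate 2 did not share the higher level, with 2 UMIs, and without control replicate 1 the call was lost (adjusted p = 0.0833). In neutrophil-gated cells, Tnfaip3 was lower at 6.17, 3.40, 4.62 and 3.18, a log2 difference of -0.99 (SE 0.22, adjusted p = 0.000637). Nfkbia was the most even of the inhibitors, with 108.6, 97.9, 113.2 and 120.3 in erythroid-gated cells against 81.4, 101.4, 84.9 and 93.6. This difference of 0.37 (SE 0.13, edgeR adjusted p = 0.0247) lost its call without control replicate 1 or KO replicate 2 (adjusted p up to 0.139).

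Tnf was close to the limit of counting in 2 gates. Megakaryocyte-gated cells held 1, 0, 2 and 4 Tnf UMIs in the 4 libraries and erythroid-gated cells 0, 1, 2 and 3. A count of 0 allows up to 7.93 CPM in the megakaryocyte gate of control replicate 2 and up to 2.40 in the erythroid gate of control replicate 1. The cells of no gate had 4.33, 6.63, 6.65 and 7.94 CPM, from 48 to 270 UMIs. The fitted log2 differences were -2.28 (SE 0.48, edgeR adjusted p = 0.00104) and -2.01 (SE 0.53, adjusted p = 0.00405), and their size rests on these few UMIs. Stem-like cells were lower by -0.68 (SE 0.23, adjusted p = 0.0279), a call held in 3 of 9 alternatives.

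**Figure D4:**
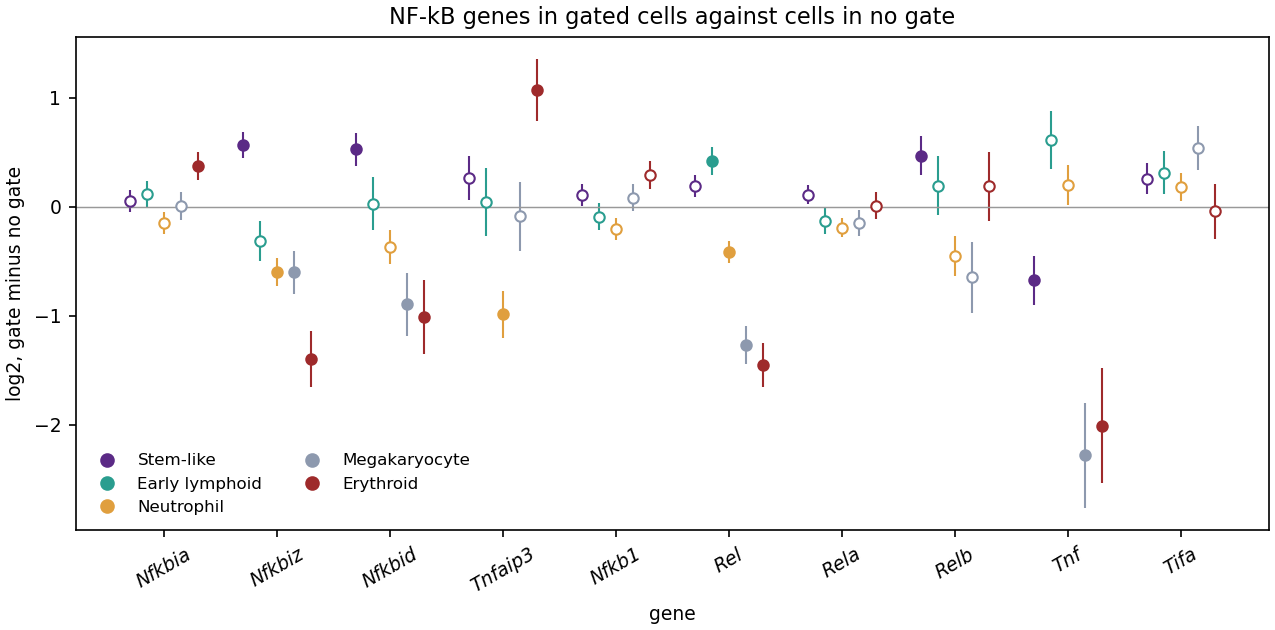
Log2 difference of each gene between a gate and the cells of no gate, with library as a block. Bars are 1 SE, and filled points passed an adjusted p of 0.05. Rel, Nfkbiz, Nfkbid and Tnf are lower in the erythroid and megakaryocyte gates, while Nfkb1, Rela and Tifa have no filled point.

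Nfkb1 and Rela had no call in any gate, with log2 differences from -0.20 to 0.29 and SEs of up to 0.13. Alternatives called Rela lower in the neutrophil gate with doubled minimums (edgeR adjusted p = 0.0297), and Nfkb1 lower there with thinned cells (0.0226) and higher in the erythroid gate without control replicate 1 (0.00582). Relb was called in 1 gate, the stem-like one (0.47, SE 0.18, edgeR adjusted p = 0.0496), a call held in 2 of 9 alternatives. In all, 4 of 10 members were lower and 2 higher in the erythroid gate, where 17.7% and 15.8% of all 10884 genes were. The counts were 4 lower in the megakaryocyte gate (8.46% of all genes), 3 lower in the neutrophil gate (22.1%), 1 higher in the early lymphoid gate (5.51%) and 3 higher and 1 lower in the stem-like gate (13.9% and 13.5%).

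Other genes of the pathway were tested between genotypes. The lists of these genes were chosen with earlier results of these data known, so the calls are no independent support for the choice. Over all LSK cells, 189 of 13779 genes were called higher (1.37%) and 285 lower (2.07%). Of 9 receptors tested, edgeR called 1, Tnfrsf1a, the main receptor for Tnf, and DESeq2 called 2. It had 60.2 and 54.5 CPM in control and 35.8 and 36.1 in KO libraries, a log2 difference of -0.72 (SE 0.13, edgeR adjusted p = 0.0413). The genotypes stood apart, but the call was lost without either KO library or with cells thinned to 2000 UMIs (adjusted p up to 0.337). Among the adaptors and kinases, the partners of Tifa were not called: Alpk1 had 5.32 and 3.02 against 2.93 and 1.84, and Traf6 had 12.8 and 11.5 against 14.8 and 12.6. For Alpk1 both KO libraries lay below both control libraries, as they did for 23.7% of all genes with 10 or more UMIs. For Traf6 the genotypes overlapped. A missing call does not show that the levels were equal.

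Tifab, which encodes a relative of Tifa that restrains Traf6, was the 1 gene called among 13 other factors and inhibitors. It had 19.4 and 12.7 CPM in control and 2.90 and 2.34 in KO libraries, a log2 difference of -2.67 (SE 0.25, edgeR adjusted p = 0.00674). Its level differed between gates, being 3.07 (SE 0.30) higher on the log2 scale in the neutrophil gate than in cells of no gate (adjusted p = 1.9e-08) and 2.36 (SE 0.53) higher in the early lymphoid gate (edgeR, adjusted p = 0.00346). The KO libraries held fewer neutrophil-gated cells. Within that gate it had 15.2 and 14.7 against 6.09 and 1.13, a log2 difference of -1.97 (SE 0.47) that did not pass (adjusted p = 0.0760). In control replicate 1 the 15.2 CPM of this gate lay below the 19.4 CPM of all LSK cells. Cells outside the gate therefore held Tifab as well, but they were not all low in neutrophil markers. In control replicate 1 they included 961 cells set apart for passing more than 1 lineage gate. The median neutrophil marker share of such cells was 86.8 and 108.6 in control libraries, against 53.4 and 50.7 in the neutrophil gate. In both KO libraries it was 0. Which cells outside the gate held Tifab was not tested. The part of the cell mix in the difference over all LSK cells was not tested. Thinning each cell to 2000 UMIs also ended the call (adjusted p up to 0.204).

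Of 23 known NF-kB targets tested, 3 were called over all LSK cells by edgeR, all lower, and all 3 encode chemokines. DESeq2 called 7 of the 23. Ccl3 had 119 and 197 CPM in control and 11.7 and 15.97 in KO libraries, a log2 difference of -3.55 (SE 0.30, edgeR adjusted p = 0.00637). Ccl4 had 101 and 193 against 22.5 and 28.3, a log2 difference of -2.58 (SE 0.33, adjusted p = 0.0146). Cxcl10 had 35.3 and 65.4 against 8.8 and 6.0, a log2 difference of -2.82 (SE 0.34, adjusted p = 0.0126). For all 3, every KO library lay far below every control library, and the calls held in all 8 alternatives, with log2 differences between -3.89 and -2.00. The median of the 23 targets was -0.24, against -0.01 for all genes, and 18 of them lay below 0. Among those not called, Sod2, a mitochondrial superoxide dismutase, had 133 and 135 against 149 and 159, and Birc3, an inhibitor of apoptosis, had 12.4 and 14.5 against 10.8 and 10.5. With either control library left out, more targets were called lower, but the count over all genes rose as well.

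Within gates, Ccl3 and Ccl4 were called lower in stem-like, neutrophil, early lymphoid and erythroid cells and in cells of no gate. In stem-like cells, Ccl3 had 114 and 163 CPM in control and 11.0 and 10.5 in KO libraries. In the erythroid gate, Ccl3 had 19 and 17 UMIs in control and 0 in both KO libraries, which allows up to 4.41 and 1.94 CPM. Ltb, which encodes lymphotoxin beta, a ligand of the non-canonical pathway, was called lower in the stem-like gate (-1.47, SE 0.21, edgeR adjusted p = 0.0061), in the neutrophil and early lymphoid gates and in cells of no gate. The counts of targets called lower were 5 of 18 in stem-like cells (3.89% of all genes tested), 4 of 18 in neutrophil-gated cells (1.38%), 4 of 13 in early lymphoid cells (0.885%), 2 of 10 in erythroid cells (0.443%), and 5 of 21 in cells of no gate (5.0%). In megakaryocyte-gated cells (0.627%) 0 of 12 were called by edgeR or DESeq2, and 3 had an unadjusted p under 0.05. Without control replicate 1 more targets were called lower in each of these groups of cells. The share of all genes was not counted within gates in that setting. In cells of no gate, Ccl2 was called higher (2.38, SE 0.57, edgeR adjusted p = 0.0441), and no target was called higher there with all deposited barcodes or without KO replicate 1. The stem-like gate also had lower Bcl10, Irak2, Irak3 and Tnip2, by 0.81 to 1.66 on the log2 scale. None of the genes of these 2 lists was called lower in this gate without KO replicate 1 or without KO replicate 2, and DESeq2 called 1 of the adaptors and kinases and 0 of the other factors and inhibitors.

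**Figure D5:**
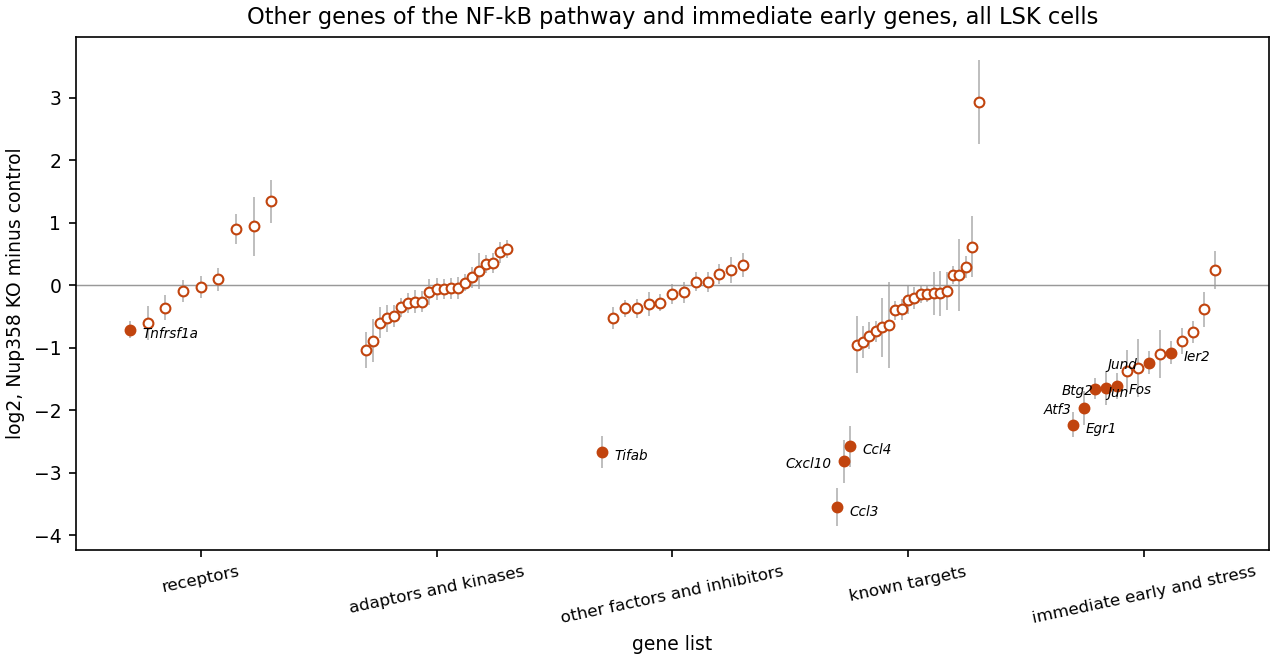
Log2 difference over all LSK cells, KO minus control, of genes of 5 lists, 1 point per gene shown with bars of 1 SE. Filled points passed an adjusted p of 0.05 and are named. Ccl3, Ccl4 and Cxcl10 stand apart from the other targets, and 13 of the 14 immediate early and stress genes lie below 0.

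The immediate early genes, whose transcripts rise within minutes of a stimulus, had the most calls of the 5 lists over all LSK cells. This list too was chosen with earlier results of these data known, so its rank and calls are no independent support for the choice. Of 14 immediate early and stress genes, 7 were called over all LSK cells, all lower (2.07% of all genes), with a median log2 difference of -1.28. Egr1 had 240 and 326 CPM in control and 59.8 and 64.5 in KO libraries, a log2 difference of -2.23 (SE 0.20, edgeR adjusted p = 0.00674). Fos had 1037 and 1163 against 315 and 424, a log2 difference of -1.62 (SE 0.21, adjusted p = 0.0151). Jun had 752 and 634 against 238 and 214, a log2 difference of -1.66 (SE 0.17, adjusted p = 0.00774). For these 3, both KO libraries lay below both control libraries. Atf3, Btg2, Ier2 and Jund were the other 4, at -1.97 to -1.08. Leaving out single libraries moved this count in both directions, as it did the count over all genes. In stem-like cells 11 of 12 were called lower (3.89% of all genes) and in cells of no gate 10 of 14 (5.0%). Called lower were also 9 of 10 in megakaryocyte-gated cells (0.627%), 6 of 13 in neutrophil-gated cells (1.38%) and 5 of 11 in early lymphoid cells (0.885%). In neutrophil-gated cells that count was 1 without KO replicate 1. In cells of no gate, edgeR also called 1 gene of the list higher. DESeq2 called, in either direction, 11 genes in stem-like cells and 12 in cells of no gate. It called 5 in megakaryocyte-gated, 9 in neutrophil-gated and 3 in early lymphoid cells. The share of all genes called by DESeq2 within gates was not computed. The erythroid gate (0.443% of all genes called lower by edgeR) had 0 of 11 by edgeR, 2 by DESeq2 and 8 with an unadjusted p under 0.05. All 11 lay below 0 there. More were called without control replicate 1, a setting in which the share of all genes was not counted within gates.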

How the data were processed

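RNA of single LSK cells was counted by transcript 3′ ends in 2 control and 2 KO libraries. The authors aligned the reads to mm10 (GRCm38) with Cell Ranger 3.1, per the labels' processing notes, and deposited UMI counts per gene and barcode without normalization, as whole numbers for 27998 genes and 25242 barcodes. Positions come from a GENCODE annotation on GRCm38, which holds 27722 of these genes.

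A cell had to have 200 genes and at most 10% mitochondrial UMIs, and a barcode with 3-fold or more UMIs elsewhere in the series was dropped as copied. Cells of 1000 or more UMIs entered a gate with at least 2 of its markers and a minimum of marker UMIs per 10000 (neutrophil 20, monocyte and dendritic, basophil and mast and B lineage 10, early lymphoid, plasmacytoid dendritic and stem-like 5, megakaryocyte and erythroid 3). A cell in more than 1 lineage gate was set apart, and counted neither in a gate nor among the cells of no gate. There were 1246 such cells, 12.3% and 5.5% of the control cells and 3.65% and 4.70% of the KO cells. A stem-like cell gave way to a lineage gate, and the minimums were set after marker shares were seen. Only gates with at least 20 cells in every library were tested. Doublets were not called.

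UMIs were summed per library and gate with Python 3.11.15 and tested with R 4.3.3 and edgeR 4.0.16 (filter on low counts, trimmed mean of M-values, quasi-likelihood, Benjamini-Hochberg at 0.05). Each SE of an edgeR fit is the absolute log2 difference divided by the square root of the test's F value. Gates were compared with library as a block. Levels are UMIs per 1000000 of the sum (CPM), and 3′ counts carry no gene length. A count of 0 is given with the limit that 3 counts allow, which covers counting error only. DESeq2 1.42.0, all deposited barcodes, a minimum of 500 genes, thinning to 2000 UMIs (sums) or 1000 (gates), doubled gate minimums, no filter on low counts, upper quartile factors, a replicate block and each library left out were the alternatives. Leaving out B lineage-gated and plasmacytoid-gated cells and a crossed block were added after the data were seen. So were the members in the neutrophil gate with all gate minimums doubled. The alternatives for the interaction of gate and genotype and for the pathway lists were also added then. Likeness used log2(CPM + 5) over genes with a mean of at least 10 CPM.

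The members and lists were chosen with earlier results of these data known. All 10 members are named. Pathway genes past the threshold over all LSK cells are named, with the exception given next. Pathway genes called within gates are named only in part. Alpk1, Traf6, Sod2 and Birc3 were added after their values were seen. A gene of the adaptor and kinase list is not reported here, in the text or in the plot of the lists. The p-values between genotypes measure the spread between pooled libraries. Those between gates, and those of the interaction of gate and genotype, have library as a block. They measure the spread that is left over the 24 sums, which share 4 libraries. On simulated counts over all LSK cells (13779 genes, 200 changed), 64% of changes of 1 and 93% of changes of 2 on the log2 scale were found, with 9.77% false calls. For the erythroid gate (7667 genes) these were 35.4%, 87.9% and 3.17%. False calls between genotypes were 10.2% in cells of no gate and 10.5% in the neutrophil gate. The changed genes were drawn only from those above a minimum mean count. The shares found therefore do not hold for genes with few UMIs.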

Additional observations from a re-analysis of the deposited data

Results flagged for a closer look

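The difference between genotypes passed a test of change between gates for 3 of the 10 genes, in 1 gate each. Every gene was tested in each of the 5 gates, as an interaction of gate and genotype. The fit covered all sums of library and gate (edgeR's quasi-likelihood test, Benjamini-Hochberg adjustment). Tnf in the neutrophil gate differed by 1.03 on the log2 scale from its difference in cells of no gate, as 2.77 and 5.67 CPM in control stood against 9.23 and 12.2 in KO libraries. Nfkb1 in the erythroid gate differed by 0.80, and Nfkbid in the neutrophil gate differed by 0.72. Over all 11218 genes, the share called was 2.97% in the neutrophil gate and 2.28% in the erythroid gate. In the gates where no member was called it was 0.0713% (megakaryocyte), 0.152% (early lymphoid) and 0.365% (stem-like). Of 21 alternatives for these 3 results, 12 lost the call. Each was lost without control replicate 1 and without KO replicate 1, and Nfkbid and Tnf also without KO replicate 2, with all deposited barcodes and with doubled gate minimums, where Nfkbid differed by 0.30.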

How the results depend on the processing

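Genes called between genotypes over all LSK cells numbered 474, and 1933 without the filter on low counts, 946 with DESeq2, 242 with cells thinned to 2000 UMIs and B lineage-gated and plasmacytoid-gated cells left out, and 372 to 2890 with single libraries left out (2890 without control replicate 1 and 1932 without control replicate 2). The replicate numbers were not used to pair the samples in the main test. Deviations of same-numbered libraries from the mean of their genotype correlated at -0.178 over 7923 genes. With 2 libraries per genotype this is a single value, which cannot show whether the numbers pair. With the replicate number as a block, 1257 genes were called over all LSK cells, 1535 in cells of no gate, 332 in the neutrophil, 117 in the erythroid and 1155 in the stem-like gate, against 975, 206, 36 and 716 without it in the last 4. A crossed block called 1735 over all LSK cells. Doubled gate minimums gave 468 in cells of no gate and 441 in stem-like cells, and left too few megakaryocyte-gated cells for a test. DESeq2 gave 25 against 62 in the megakaryocyte and 27 against 102 in the early lymphoid gate, and all deposited barcodes gave 63 in the erythroid and 65 in the early lymphoid gate.

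Between gates, thinning before gating gave 797 genes for the stem-like gate against 2982, and left only the neutrophil and stem-like gates with enough cells. Leaving out single libraries gave 3060 to 3918 for the neutrophil gate, 1149 to 1538 for the megakaryocyte gate, 2178 to 3423 for the erythroid gate, 615 to 1082 for the early lymphoid gate and 1845 to 2213 for the stem-like gate. The cause of these shifts was not tested.

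Of 140 alternative values of the members' difference between genotypes, 1 reversed a sign, that of Rela (-0.019 to 0.44 with single libraries left out, against 0.19, with the lowest value without control replicate 2). The sign of Nfkbia and Tnfaip3 also changed within their SE. Of 410 alternative tests of members between gates, 362 kept the side of the threshold, 34 lost a call and 14 gained one, and none reversed. The interaction of gate and genotype also moved. For Nfkbid in the neutrophil gate it was 0.63 (edgeR adjusted p = 0.0959) with all deposited barcodes and 0.30 with doubled minimums. With libraries left out it was 0.57 to 0.87. For Tnf in that gate it was 0.94 (edgeR adjusted p = 0.0807) and 0.79, and 0.77 to 1.21 with libraries left out. For Nfkb1 in the erythroid gate it was 0.54 to 1.08 with libraries left out.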
